A study of Oryza sativa with 6 samples.

Results

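Polycomb repressive complex 2 (PRC2) of rice was followed through 6 gene loci in RNA sequencing of young grains. The loci are LOC_Os08g04290 (FIE1), LOC_Os08g04270 (FIE2), LOC_Os04g08034 (EMF2a), LOC_Os09g13630 (EMF2b), LOC_Os06g16390 (CLF, also called SDG711) and LOC_Os03g19480 (EZ1, also called SDG718). They were taken by identifier from the 39217 gene models of the deposited table. All 6 are in the table, and all 6 are among the 23395 genes that passed the filter on low counts. The names were assigned to the identifiers and are not in the deposited table. The reference gene table used here holds the symbol EZ1, on the chromosome that its locus identifier gives, and not the other 5 symbols as written here.

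Whole grains were collected 3 days after pollination from ZH11, the wild type and a japonica rice cultivar, and from the drw1 mutant, both grown in the field. Total RNA was sequenced in 3 libraries per genotype, 6 in all. The labels number the libraries without saying whether they came from separate plants, so the error in every test is the spread of libraries, which may be technical only. The nature of the drw1 mutation is not given in the sources used here. The mutant's columns carry a prefix other than drw1 and were assigned to it because the series holds only these genotypes, and the mutated gene was not analysed here.

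PRC2 silences genes by methylating a lysine of histone H3. Its core holds an E(z)-type methyltransferase (CLF or EZ1 here), a Su(z)12-type subunit (EMF2a or EMF2b), an ESC-type WD40 subunit that binds the methylated mark (FIE1 or FIE2) and an MSI1-type WD40 subunit. In rice, FIE1 and EMF2a are known as imprinted genes expressed from the maternal allele in the endosperm, the nutritive tissue of the grain, whereas FIE2, EMF2b, CLF and EZ1 are expressed widely in the plant. The deposited counts do not separate the parental alleles.

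Library totals ran from 15582373 to 24147797 counts in ZH11 and from 16440923 to 17270099 counts in drw1. Libraries of each genotype differed by more than sampling noise, so none was taken for a repeat of another. The genotypes differed across most of the transcriptome: an adjusted p under 0.05 was reached by 70.1% of the genes tested with the quasi-likelihood method of edgeR, 35.7% with more and 34.4% with less RNA in drw1, and in 72.6% every library of one genotype lay above every library of the other.

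Among the 6 PRC2 genes, 3 were lower in drw1 (FIE1, EMF2a and CLF), 1 was slightly higher (FIE2), and 2 did not pass the test (EMF2b and EZ1). The 4 called of 6 lie beside a background of 70.1% called among all genes, so the count itself does not set PRC2 genes apart. FIE1 was the only member that changed by at least 2-fold, which 14.6% of all genes tested did in the downward direction. The median log2 fold change of the 6 was -0.36, beside 0.03 for all genes tested. For 4 of the 6 the ranges of ZH11 and drw1 libraries were apart, as for 72.6% of all genes.

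FIE1, the ESC-type subunit restricted to endosperm, had 468, 666 and 438 counts in ZH11 libraries 1 to 3 and 65, 74 and 68 counts in drw1 libraries 1 to 3. As RPKM (TMM-scaled CPM divided by the kilobases of the gene model), this was 18.1, 20.8 and 21.0 in ZH11 and 2.66, 3.04 and 2.68 in drw1. RPKM can be compared between genes only as far as the deposited lengths fit their transcripts. Every ZH11 library lay far above every drw1 library. The mean level fell from 19.9 ± 1.60 to 2.79 ± 0.215 RPKM (SD, n = 3), 7.13-fold by the fitted log2 fold change of -2.83 (SE 0.12, adjusted p = 9.6e-13 by edgeR). Of all genes tested, 2.12% had a lower fold change than FIE1. In ZH11 its level exceeded that of 68.4% of the genes tested, and in drw1 that of 22.9%.

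FIE2, the widely expressed ESC-type subunit, whose locus lies close to that of FIE1 on chromosome 8, did not fall. Its levels were 19.4, 20.1 and 19.3 RPKM in ZH11 and 22.4, 22.8 and 20.8 RPKM in drw1. The drw1 values were all above the ZH11 values, by a small margin. The log2 fold change was 0.17 (SE 0.07, adjusted p = 0.033 by edgeR). This call was lost without ZH11 replicate 1, 2 or 3 and without drw1 replicate 1 or 2, where the log2 fold change was 0.14 to 0.18, and adjusted p ran from 0.00039 to 0.13 over all 14 alternatives. FIE1 and FIE2 are related genes, and how the authors treated reads with several matches is not given in the sources used here, so reads shared between them could shift either value.

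**Figure D1:**
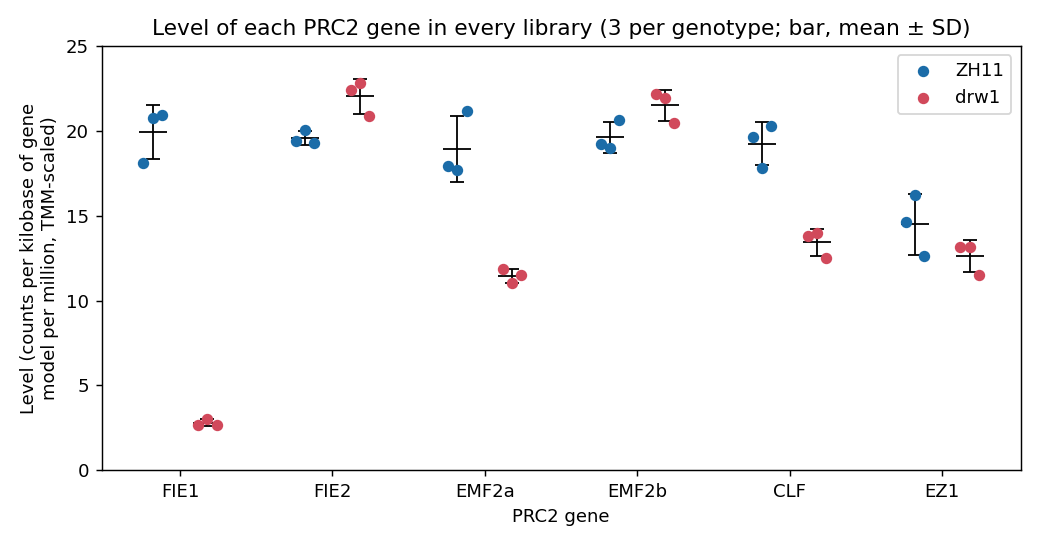
Level of each of the 6 PRC2 genes in every library, in RPKM with TMM scaling (vertical axis, linear), blue for ZH11 and red for drw1, with bars for the mean ± SD of 3 libraries. The genes other than EZ1 stand close together in ZH11 at 17.7 to 21.1 RPKM, while in drw1 FIE1 lies at 2.66 to 3.04 RPKM and FIE2 and EMF2b lie above 20.4 RPKM.

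Among the Su(z)12-type subunits, which hold the complex together, the endosperm-expressed EMF2a was lower in drw1 and EMF2b was not. EMF2a had 17.9, 17.7 and 21.1 RPKM in ZH11 and 11.9, 11.03 and 11.5 RPKM in drw1, with no overlap between the genotypes. Its log2 fold change was -0.72 (SE 0.08, adjusted p = 7.3e-07 by edgeR), a fall of 1.65-fold. EMF2b, which in rice is known for its part in flower development, had 19.2, 19.0 and 20.6 RPKM in ZH11 and 22.1, 21.9 and 20.5 RPKM in drw1. Its groups overlapped, with ZH11 library 3 above drw1 library 3. The log2 fold change of 0.13 (SE 0.07, adjusted p = 0.11 by edgeR) had a 95% interval from -0.02 to 0.29. With library totals alone or upper-quartile factors as scaling, EMF2b was called higher at 0.29 and 0.24.

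The methyltransferase genes, which carry the catalytic SET domain, shifted by less than 2-fold. CLF had 19.6, 17.8 and 20.3 RPKM in ZH11 and 13.8, 13.96 and 12.5 RPKM in drw1, with every ZH11 library above every drw1 library. Its log2 fold change was -0.52 (SE 0.08, adjusted p = 1.2e-05 by edgeR), a fall of 1.43-fold. EZ1 had 14.6, 16.2 and 12.6 RPKM in ZH11 and 13.1, 13.2 and 11.5 RPKM in drw1. Its groups overlapped, because ZH11 library 3 lay below drw1 libraries 1 and 2. The log2 fold change of EZ1 was -0.21 (SE 0.09, adjusted p = 0.058 by edgeR), with an unadjusted 95% interval from -0.40 to -0.01. EZ1 was called lower without ZH11 replicate 1 (-0.21) or ZH11 replicate 3 (-0.30), with DESeq2 size factors (-0.23) and with no filter on low counts (-0.20).

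Small changes depend on how libraries are scaled. Library totals alone moved the median of all genes by 0.16 on the log2 scale and upper-quartile factors moved it by 0.11. Relative to the median of all genes, the members' log2 fold changes hardly moved over 4 scalings: FIE2 stayed at 0.14, EMF2b at 0.10, EZ1 at -0.24, CLF at -0.55, EMF2a at -0.75 and FIE1 at -2.87. A change of scaling shifts all genes by nearly the same amount, so this holds by construction and does not test the members. FIE1, EMF2a and CLF were called lower in each of the 14 alternatives tried.

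**Figure D2:**
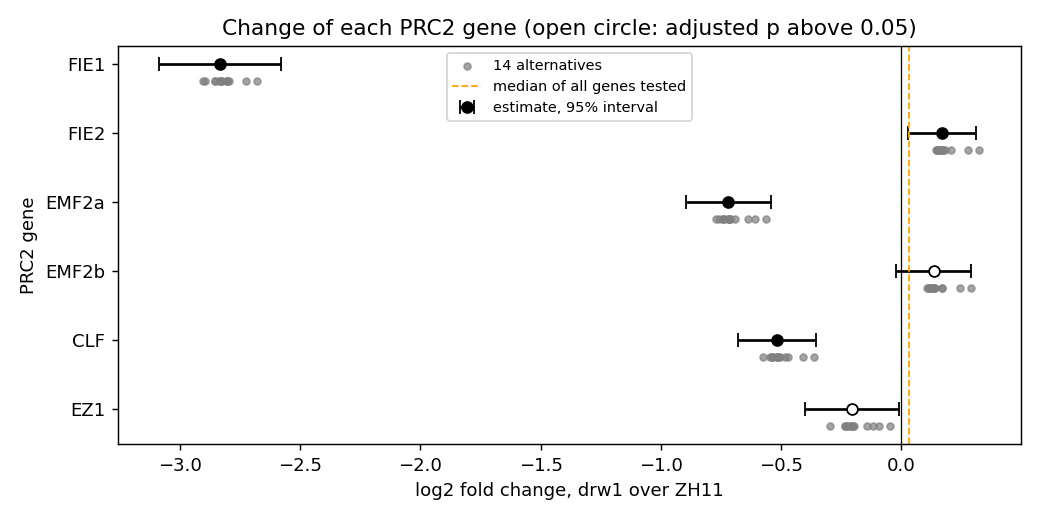
Log2 fold change of each PRC2 gene, drw1 over ZH11 (horizontal axis), as black circles with 95% intervals, filled where the adjusted p was under 0.05, with grey points for the 14 alternatives and a dashed line for the median of all genes tested (0.03). FIE1 stands at -2.83, EMF2a and CLF at -0.72 and -0.52, and the other 3 genes lie between -0.21 and 0.17.

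The order of levels, which rests on the deposited lengths, differed between the genotypes. In ZH11, FIE1, EMF2b, FIE2, CLF and EMF2a followed each other from 19.9 to 18.9 RPKM, and no neighbours in that order differed beyond the spread of their libraries. EZ1 was lower, at 14.5 ± 1.81 RPKM (SD, n = 3), with no library reaching the EMF2a range. In drw1, FIE2 at 22.02 ± 1.04 and EMF2b at 21.5 ± 0.904 RPKM overlapped and stood above the rest. CLF at 13.4 ± 0.785, EZ1 at 12.6 ± 0.950 and EMF2a at 11.5 ± 0.425 RPKM formed a middle group in which neighbours overlapped. FIE1 was lowest by a wide gap. Within a genotype, the SD of a member was 2.16% to 12.5% of its mean.

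Ratios within each subunit pair are free of the scaling between libraries and show whether the partners changed by different amounts. FIE1 made up 48.3%, 50.9% and 52.1% of the summed FIE1 and FIE2 level per length in ZH11 libraries 1 to 3, and 10.6%, 11.7% and 11.4% in drw1. By this per-length measure the pair was close to evenly split in the wild type, and FIE2 made up most of it in the mutant. The even split rests on the deposited lengths, 1401 bases for FIE1 and 3311 bases for FIE2. In counts over ZH11, not divided by length, FIE1 had 1572 and FIE2 had 3657. The log2 ratio of FIE1 to FIE2 changed by -2.996 from ZH11 to drw1, a 7.98-fold shift. EMF2a made up 48.2%, 48.2% and 50.6% of its pair in ZH11 and 34.9%, 33.5% and 35.9% in drw1. The log2 ratio of EMF2a to EMF2b changed by -0.85, a 1.80-fold shift in the same direction, away from the endosperm-expressed partner.

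CLF made up 57.4%, 52.3% and 61.6% of the CLF and EZ1 level in ZH11 and 51.2%, 51.5% and 52.1% in drw1. Here ZH11 library 2 lay almost at the drw1 values. The log2 ratio changed by -0.32, and by -0.19 without ZH11 replicate 3. Ratios of ZH11 and drw1 libraries did not overlap in any of the 3 pairs. The exact permutation test, two-sided over 3 against 3 libraries, gave p = 0.10 for each pair, which is the smallest p this design allows and is also the value adjusted over the 3 ratios. With 3 libraries per genotype this test therefore cannot fall under 0.05, whatever the size of the difference.

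**Figure D3:**
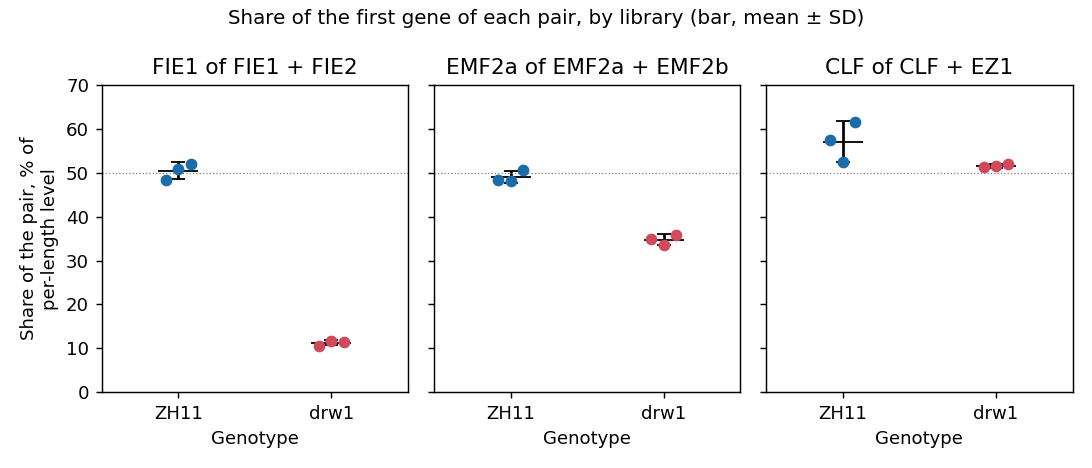
Share of the first gene of each subunit pair in the pair's summed level per length (vertical axis, percent), 1 point per library, with bars for the mean ± SD of 3 libraries. The FIE1 share drops from 50.4% to 11.2%, the EMF2a share from 49.0% to 34.8% and the CLF share from 57.1% to 51.6%.

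Summed over each pair, the ESC-type level was 39.5 ± 1.80 RPKM in ZH11 and 24.8 ± 1.19 RPKM in drw1 (SD, n = 3), 37.2% lower. The methyltransferase pair was 22.8% lower, at 33.7 ± 0.737 against 26.0 ± 1.73 RPKM, and the Su(z)12-type pair 14.4% lower, at 38.5 ± 2.83 against 33.0 ± 1.04 RPKM. The genotypes did not overlap in these sums with TMM scaling. With library totals alone the Su(z)12-type sums overlapped and were 4.67% lower, while the other pairs were 30.04% and 13.9% lower without overlap. The sums weigh the genes by the deposited lengths, 1401 bases for FIE1 and 3311 bases for FIE2. Without division by length, FIE1 went from 27.9 to 3.91 TMM-scaled CPM and FIE2 from 64.8 to 72.9. By the same measure EMF2a went from 54.8 to 33.2 and EMF2b from 45.3 to 49.7. CLF went from 63.2 to 44.1 and EZ1 from 46.1 to 40.1. Undivided, the methyltransferase pair rather than the ESC-type pair had the largest relative fall. The sizes of the falls in the sums, and their order over the pairs, thus depend on these lengths.

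Loci assigned to tissues of the grain were measured beside the members. This list and those below were chosen with earlier results of these data known, so their counts are description only. Of 19 loci assigned to endosperm functions (storage proteins, starch enzymes and their regulators), 18 are in the table. All 18 were lower in drw1, as 34.4% of all genes were, and all 18 fell at least 2-fold. The median log2 fold change was -5.20, beside 0.03 for all genes tested, and values ran from -6.32 to -1.47. Their summed level ran from 1846 to 1897 CPM (counts scaled by TMM to a common library total) in ZH11 and from 150 to 163 CPM in drw1, 11.9-fold lower by the means. None of the 18 was at 0 in either genotype, but for 6 of them the drw1 libraries alone would not have passed the filter on low counts. These 6 could only appear as lower and lend the count and the median no support. Their log2 fold changes ran from -5.89 to -4.96, and without them the median would be less negative. The extremes of -6.32 and -1.47 belong to loci outside the 6. FIE1 fell less than 15 of the 18 loci, a number that takes in all 6 of these, and EMF2a fell less than all 18. This list leaves out the type I MADS loci of the early endosperm described below, which were called higher in drw1. It therefore does not stand for the endosperm as a whole. In whole-grain RNA, fewer cells of a tissue and less RNA per cell cannot be told apart, and the part of a changed endosperm share in the falls of FIE1 and EMF2a was not tested.

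FIE1 fell less than the endosperm sum and far more than the other members. Per 1000 CPM of the endosperm list, FIE1 had 14.9 ± 1.36 CPM (SD, n = 3) in ZH11 against 24.8 ± 1.79 CPM in drw1. The same measure was 29.3 ± 3.41 and 210 ± 11.7 CPM for EMF2a, and 34.6 ± 0.740 and 461 ± 7.10 CPM for FIE2. Relative to the list sum, FIE1 thus rose 1.66-fold, EMF2a 7.19-fold and FIE2 13.3-fold. The sum leans on 1 abundant locus, which gave 28.9% of it in ZH11 and 45.2% in drw1 and fell 7.58-fold, close to FIE1. Without that locus, an alternative chosen after seeing the data, the list sum fell 15.4-fold and FIE1 rose 2.15-fold against it.

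Other grain tissues were measured in the same way. All 6 loci assigned to maternal grain tissue (nucellus, green pericarp and husk) were lower in drw1, 2 of them at least 2-fold. Among all genes tested, 34.4% were lower and 14.6% were lower by at least 2-fold. The median of the 6 loci was -0.74 on the log2 scale, beside 0.03 for all genes tested. Summed, these loci were at 851 to 953 CPM in ZH11 and 535 to 571 CPM in drw1. Their range, from -1.34 to -0.37, takes in the values of EMF2a and CLF. Of 2 loci assigned to the embryo, 1 was lower and 1 did not pass, with summed levels of 14.1 to 16.7 CPM in ZH11 and 7.23 to 9.90 CPM in drw1. None of these loci was at 0, and their part in the members' changes was not tested.

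Another 5 loci were assigned to Polycomb function outside the 6. Of these, 2 were lower, 1 was higher and 2 did not pass, beside 34.4% lower and 35.7% higher among all genes tested. The median of the 5 loci was -0.01 on the log2 scale, beside 0.03 for all genes tested. The locus assigned to MSI1, the remaining core subunit of PRC2, stood at 94.2 ± 3.47 CPM (SD, n = 3) in ZH11 against 93.7 ± 1.60 CPM in drw1, with a log2 fold change of -0.01 (SE 0.06, adjusted p = 0.90 by edgeR). The locus assigned to LHP1, known in Arabidopsis as a reader of the PRC2 mark, was at 37.2 ± 1.98 and 38.0 ± 1.87 CPM, a log2 fold change of 0.03 (SE 0.08, adjusted p = 0.76 by edgeR). The locus assigned to JMJ705, a rice demethylase that removes the mark, went from 42.3 ± 5.72 to 19.7 ± 1.00 CPM with a log2 fold change of -1.10 (SE 0.10, adjusted p = 4.0e-08 by edgeR). The reference table holds these 3 symbols on the chromosomes of the assigned loci.

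Type I MADS genes are transcription factors of the early, syncytial endosperm, and some are known in Arabidopsis as targets of PRC2. The 4 loci assigned to them were all called higher in drw1, beside 35.7% of all genes, with a median log2 fold change of 1.84 beside 0.03 for all genes. They were chosen with earlier results of these data known, so this count is no independent support. For 2 of the 4, which had 0 and 31 counts over ZH11, the ZH11 libraries alone would not have passed the filter, so these could only appear as higher and lend the count and the median no support. The first had 38 counts over drw1, a rise of at least 13.5-fold if 3 counts over ZH11 are taken as the floor, and the median is 1.84 also with this locus at its bound. The other 2 loci had log2 fold changes of 0.96 (SE 0.28, adjusted p = 0.0056 by edgeR) and 1.30 (SE 0.12, adjusted p = 5.1e-08 by edgeR). The reference table has none of these 4 symbols. Neither PRC2 binding nor its histone mark was measured here, and a link between these loci and the PRC2 genes was not tested.

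**Figure D4:**
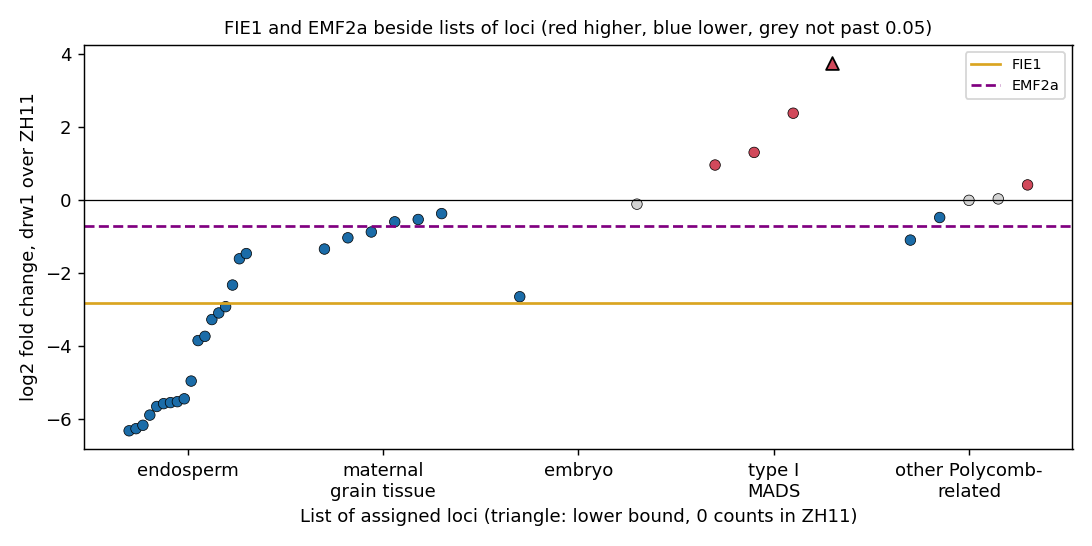
Log2 fold change, drw1 over ZH11 (vertical axis), of the tested loci in 5 assigned lists, red where higher, blue where lower and grey where not past an adjusted p of 0.05, with a triangle for the lower bound of the locus with 0 counts in ZH11. Horizontal lines mark FIE1 at -2.83, above 15 of 18 endosperm loci, and EMF2a at -0.72, within the range of the maternal tissue loci. Of the 15, 6 passed the filter on low counts only through ZH11 and could only appear as lower.

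FIE1 and FIE2 are separated by 1 tested locus on chromosome 8, in the order of their identifiers, and loci around them moved in opposite directions. The locus between them was higher in drw1 by 0.40 on the log2 scale. Of the 10 tested loci before FIE2, 5 were higher, 2 were lower and 3 did not pass. The 4 loci directly before FIE2 rose by 4.63 to 6.76 on the log2 scale. Of these, LOC_Os08g04210 stood at 5.68 ± 0.590 CPM (SD, n = 3) in ZH11 and at 610 ± 20.1 CPM in drw1, and LOC_Os08g04250 at 2.04 ± 0.566 and 124 ± 4.38 CPM. These 2 loci were singled out after their values were seen, and no source used here gives their function.

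Of the 10 tested loci after FIE1, 4 were higher, 5 were lower and 1 did not pass. A run of 5 neighbouring loci on that side was lower, by up to 3.22 on the log2 scale, more than FIE1 itself. In all, 17 of the 21 loci around the pair were called beside 70.1% of all genes, and 11 changed at least 2-fold beside 27.3% of all genes. The median size of their change, without regard to direction, was 1.05 on the log2 scale beside 0.54 for all genes tested. FIE2 thus lay between loci that rose by 24.7-fold or more and, past 1 locus higher by 0.40 on the log2 scale, a partner that fell 7.13-fold. Neighbouring copies of a gene family can share reads, which was not measured here.

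**Figure D5:**
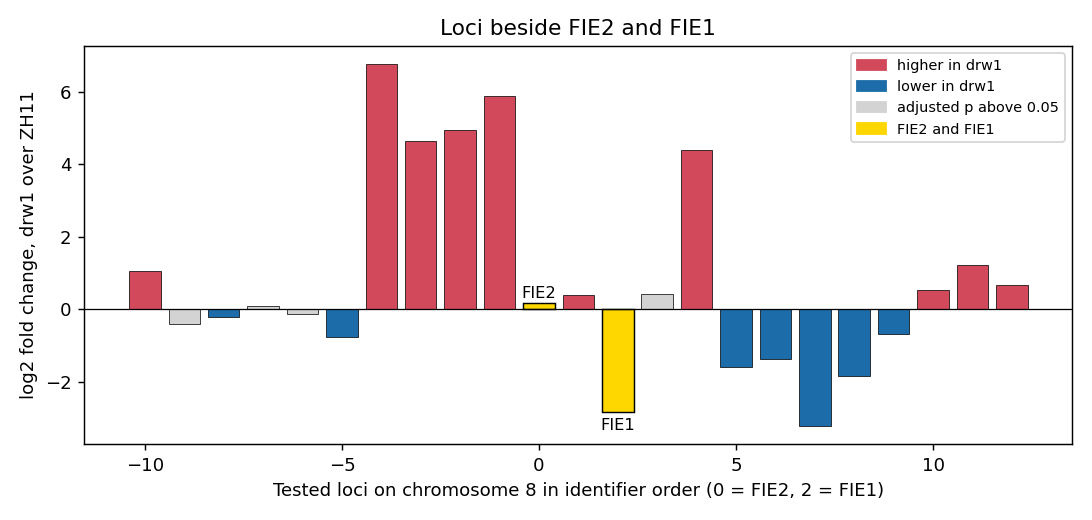
Log2 fold change, drw1 over ZH11 (vertical axis), of tested loci on chromosome 8 by their place in identifier order (horizontal axis, 0 for FIE2 and 2 for FIE1), red for higher, blue for lower, grey for an adjusted p above 0.05 and yellow for the PRC2 pair. The 4 bars left of FIE2 reach 4.63 to 6.76, and FIE1 at -2.83 stands near a run of 5 lowered loci.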

How the data were processed

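The authors deposited 1 table with whole read counts for each gene model, without normalization, per the file headers and the values, and with each model's length in bases. The submitters' processing notes name HISAT2, featureCounts, fastp and DESeq. Their versions, the genome build, annotation and strand setting were not stated, so values of overlapping, antisense or near-identical genes are uncertain.

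Genotypes were compared with edgeR 4.0.16 in R 4.3.3 (two-sided quasi-likelihood test on genotype alone, TMM scaling, default filter on low counts). Benjamini-Hochberg adjustment covered all 23395 genes that entered the test, and an adjusted p under 0.05 was a call. Standard errors and 95% intervals are approximations from the F statistic. RPKM here is the TMM-scaled CPM divided by the deposited length in kilobases. Pair ratios were taken after adding 0.5 to each count. Alternatives included DESeq2 1.42.0 and limma-voom (limma 3.58.1).

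The members and all lists were chosen with earlier results of these data known. List loci were assigned from memory, since 0 of the 39217 identifiers occur in the RefSeq gene table of assembly ASM3414082v1. By the naming rule, single loci are named only among the members, the Polycomb-related loci whose symbol that table holds, and the loci most like FIE1. Outside this rule, 2 neighbours of FIE2 are named that were chosen after their values were seen. No sequence table was used here, so no sequence is shown.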

Additional observations from a re-analysis of the deposited data

How the results depend on the processing

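Of 23395 genes tested, 16395 were called, and 15243 to 16522 when 1 library was left out. Between 3 and 5 of the 6 members were called over all alternatives. The FIE2 change of 0.17 was past the threshold in 6 of 14 alternatives. It was not with DESeq2 size factors (0.15), with DESeq2 (0.15) or with the replicate number as a block (0.17, adjusted p = 0.070), and it was 0.14 to 0.21 when 1 library was left out. EMF2b was called with library totals (0.29) and upper-quartile factors (0.24). EZ1 was called with DESeq2 size factors (-0.23) and with no filter (-0.20), and it was -0.30 to -0.12 when 1 library was left out. Relative to the median of all genes the members hardly moved with scaling, which holds by construction because scaling shifts all genes nearly alike. The cause of the other shifts was not tested. FIE1 ran from -2.90 to -2.68, EMF2a from -0.77 to -0.56 and CLF from -0.58 to -0.36 over all alternatives, without loss of a call. Pair ratios kept their direction with nothing or 5 added to each count, and without 1 library.

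Nothing in the labels links equal replicate numbers across genotypes, and deviations from the genotype means correlated at -0.20, 0.04 and -0.16 between libraries of equal number. Only 1 of the 6 matched its own number best. The block called 15505 genes and changed no member's call other than that of FIE2. Pair ratios taken within same-numbered libraries have the same mean difference by construction. Their exact sign-flip p was 0.25, the smallest that 3 pairs allow. FIE1 rests on 207 counts over drw1, the shallowest value among the members.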

Other observations

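The loci beside the other members give a measure of how common such neighbourhoods are. Among the 20 tested loci nearest to each, at least 2-fold changes numbered 8 around EMF2a, 6 around EMF2b, 4 around CLF and 3 around EZ1, beside 11 of 21 around FIE1 and FIE2 and 27.3% of all genes. The median size of change was 0.71 on the log2 scale around EMF2a, 0.49 around EMF2b, 0.53 around CLF and 0.46 around EZ1. Of these 2-fold loci, 4 around EMF2a, 2 around EMF2b, 2 around CLF, 1 around EZ1 and 1 around FIE1 and FIE2 passed the filter on low counts only with the help of the genotype in which they were high. Among all genes tested, this held for 1614 of the 6383 that changed at least 2-fold. The differences between these neighbourhoods were not tested.

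Loci were ranked by how closely their log2 CPM followed FIE1 over the 6 libraries, among 18128 loci that reached 5 CPM in either genotype. The closest were LOC_Os01g51890 and LOC_Os02g06570, each with a Pearson correlation that rounds to 1.00. LOC_Os01g51890 went from 102 to 41.0 CPM and LOC_Os02g06570 from 56.7 to 14.2 CPM, log2 fold changes of -1.31 and -1.995, so both fell less than FIE1. With 2 groups of 3 libraries such a correlation mainly reflects the genotype difference: 9.21% of the loci compared had a correlation above 0.99 with FIE1, and 0.723% had one with EMF2a.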
